A study of Mus musculus with 6 samples.

Results

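The Wnt pathway was followed through 44 genes in mammary epithelial organoids at the onset of lactation. The genes are 15 Wnt ligands, 11 Frizzled and LRP receptors, 9 secreted regulators and ligand-export genes, and 9 intracellular components. They were listed by name, with earlier results of these data known, and all 44 are among the 17739 genes of the deposited table. RNA was sequenced from 6 lactating FVB mice on lactation day 1, 3 wild type and 3 labelled Nmi-/- from a conditional knockout, with 1 library per mouse. The organoids are fragments of epithelium freed with collagenase and pronase from mammary glands 2 and 3 of each mouse. The labels name neither the Cre driver nor the deleted exons, and they give no age beyond the day of lactation. The series' title and design text set the question, which is what loss of Nmi, an interferon-inducible partner of Myc and STAT proteins, does to the growth of this epithelium.

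Wnt proteins are lipid-modified signals. They are acylated by Porcn and carried to the cell surface by Wls, where they bind a Frizzled receptor together with Lrp5 or Lrp6. In the canonical branch this frees beta-catenin from a destruction complex that contains Axin, Apc and Gsk3, and beta-catenin then acts with TCF factors on target genes. In the mammary gland the pathway is known for its part in bud formation, in the branching driven by progesterone and in the upkeep of basal stem cells.

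Values are FPKM, fragments scaled to gene length and to the library total, so levels can be set side by side between genes. Nmi had 4.60, 2.82 and 2.32 FPKM in wild-type replicates 1, 2 and 3 and 0.188, 0.547 and 0.564 FPKM in knockout replicates 1, 2 and 3. Its groups did not overlap, and its log2 fold change was -1.54 (SE 0.23, limma, adjusted p = 0.372). Milk transcripts, a list of 16 genes, held 45.9% of the FPKM sum in wild-type replicate 1 and 74.7% in knockout replicate 3, the lowest and the highest share, with 59.0% to 68.3% in the other 4 libraries. These 2 libraries stood apart in most genes, so the fold changes below are also given without them where such a value exists. Markers of fat cells (at most 0.167 FPKM) and of T and B cells (at most 0.215 FPKM) were near 0. Of 8 markers each, 2 of fibroblasts, 0 of endothelium and 4 of macrophages stayed under FPKM 1 in every library. The highest single marker value was 22.5 FPKM for fibroblasts, 48.7 FPKM for endothelium and 8.75 FPKM for macrophages. The abundant gene Gapdh was listed at 0 to 0.0769 FPKM, so a value near 0 may reflect a failed estimate, and absence is not read from it.

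Of the 15 ligands, 4 reached FPKM 1 in at least 3 libraries: Wnt5b, Wnt4, Wnt7b and Wnt10a. Wnt5b alone did so in all 6, and Wnt4 did so in 5. Wnt7b and Wnt10a did so in 3 libraries each, with lowest passing values of 1.01 and 1.04 FPKM, and after rescaling to the FPKM sum outside milk genes each reached 1 in 2 libraries only. Wnt9a reached it in 2 libraries, and Wnt5a and Wnt6 in 1 library each. The other 8 ligands, Wnt1, Wnt2, Wnt2b, Wnt7a, Wnt9b, Wnt10b, Wnt11 and Wnt16, stayed under FPKM 1 in every library. Of these 8, Wnt11 came highest, at 0.198 to 0.737 FPKM, and Wnt2b had 0.124 to 0.257 FPKM. The remaining 6 never exceeded 0.148 FPKM.

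Wnt5b, a ligand best known for signalling that does not pass through beta-catenin, was the most abundant ligand in each of the 6 libraries. It had 21.9, 10.8 and 13.0 FPKM in wild-type replicates 1, 2 and 3 and 7.78, 14.4 and 2.49 FPKM in knockout replicates 1, 2 and 3. Wnt3, Wnt3a, Wnt8a and Wnt8b were not among the genes of the deposited table, so no sum of ligands includes them. Of the summed FPKM of the 15 ligands, Wnt5b made up 44.6% to 70.4%. The highest value was in wild-type replicate 1 and the lowest in knockout replicate 3, and knockout replicate 2 lay above wild-type replicates 2 and 3, so the groups overlapped. Wnt5b lies on chromosome 6 of GRCm38, from 119432531 to 119544347, on the minus strand.

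RefSeq gives Wnt5b 3 transcription start sites on GRCm38.p6, and a value per gene does not say which of them was used. The 250 bases before each start are shown because Wnt5b was the most abundant of the 15 ligands in each library. Those before the start of Wls are also shown, since Wls was highest and lowest in the opposite end libraries. They run 5′ to 3′ on the strand of the gene. Capitals mark matches on either strand to CTTTGAT, the core recognised by TCF and LEF factors, and to TTCNNNGAA, the motif recognised by STAT factors, where N is any base. No 2 matches overlap in these windows.
Wnt5b, distal start, chr6:119544348-119544597, minus strand: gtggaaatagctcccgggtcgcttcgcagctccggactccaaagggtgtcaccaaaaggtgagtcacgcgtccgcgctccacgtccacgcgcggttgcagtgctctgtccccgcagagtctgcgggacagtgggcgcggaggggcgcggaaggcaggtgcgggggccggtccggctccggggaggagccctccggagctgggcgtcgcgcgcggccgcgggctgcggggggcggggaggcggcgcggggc
Wnt5b, middle start, chr6:119467212-119467461, minus strand: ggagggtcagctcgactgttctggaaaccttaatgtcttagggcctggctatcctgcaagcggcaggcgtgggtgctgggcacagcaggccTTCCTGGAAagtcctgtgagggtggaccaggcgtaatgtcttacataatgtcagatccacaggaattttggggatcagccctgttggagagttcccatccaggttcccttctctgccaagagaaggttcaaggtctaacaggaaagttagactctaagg
Wnt5b, proximal start, chr6:119449387-119449636, minus strand: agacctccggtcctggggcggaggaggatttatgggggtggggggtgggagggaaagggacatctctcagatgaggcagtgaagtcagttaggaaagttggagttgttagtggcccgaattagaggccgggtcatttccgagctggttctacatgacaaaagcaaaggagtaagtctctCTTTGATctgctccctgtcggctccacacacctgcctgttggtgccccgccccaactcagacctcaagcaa
Wls, chr3:159839400-159839649, plus strand: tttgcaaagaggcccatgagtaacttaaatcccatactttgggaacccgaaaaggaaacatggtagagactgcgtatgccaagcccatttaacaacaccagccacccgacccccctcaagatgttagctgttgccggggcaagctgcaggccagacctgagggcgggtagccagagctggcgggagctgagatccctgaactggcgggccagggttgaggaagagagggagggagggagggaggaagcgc

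The distal window of Wnt5b was rich in CpG (35 CpG, 75.2% G and C) and held neither motif, while the middle and proximal windows had 4 and 7 CpG. Over all 32851 RefSeq promoter windows of this length, 3.21% held CTTTGAT and 7.02% held TTCNNNGAA. Among 33 windows of the 28 members that were matched, 2 held CTTTGAT (Wnt5b and Wnt11) and 1 held TTCNNNGAA (Wnt5b). The member windows had a median of 23 CpG, against 6 over all windows. A match describes the letters of the window and not a bound site.

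By the mean over the 6 libraries, Wnt4 (1.98 FPKM) and Wnt7b (1.34 FPKM) came next, with Wnt10a (1.22 FPKM) close behind. Wnt10a exceeded Wnt7b in every library except wild-type replicates 1 and 3. Wnt4, a ligand known as a target of progesterone in the gland, had 2.55, 2.16 and 1.74 FPKM in wild type and 1.65, 3.23 and 0.551 FPKM in the knockout (replicates 1, 2 and 3). Knockout libraries held both its highest and its lowest value. Wnt7b, an epithelial ligand, had 3.69, 1.01 and 0.852 FPKM in wild type and 0.498, 1.75 and 0.262 FPKM in the knockout. Its highest value was 14.1 times its lowest, the widest span of the 25 members tested between genotypes, and the groups overlapped. An antisense gene overlaps exons of Wnt7b, and without a stated strand setting reads of both cannot be told apart. Wnt9a and Wnt5a showed the same 2 ends, wild-type replicate 1 highest (1.81 and 1.39 FPKM) and knockout replicate 3 lowest (0.201 and 0.522 FPKM).

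Wnt10a and Wnt6, neighbours 6.19 kb apart on the plus strand of chromosome 1, followed another order. Wnt10a had 1.04, 1.68 and 0.645 FPKM in wild type and 0.636, 2.55 and 0.769 FPKM in the knockout. Wnt6 had 0.371, 0.722 and 0.430 FPKM in wild type and 0.408, 1.27 and 0.407 FPKM in the knockout. Both were highest in knockout replicate 2 and second highest in wild-type replicate 2, and so was Wnt11, at 0.737 and 0.679 FPKM. The summed FPKM of 10 basal myoepithelial markers was 1204, 981 and 556 in wild type and 463, 1606 and 477 in the knockout. This sum was also highest in knockout replicate 2, but second highest in wild-type replicate 1. Acta2 was the largest part of it in knockout replicate 2 (724 FPKM), while Krt5, Krt14, Oxtr and Trp63 were highest in wild-type replicate 1. All 10 of these markers were tested, all on the lower side in the knockout, where 81.7% of all genes lay, and 0 called. The part of basal cells in the level of these ligands was not tested. In bulk RNA, fewer cells of a type and less RNA per cell cannot be told apart. The other pair of neighbours, Wnt1 and Wnt10b on chromosome 15 (11.7 kb apart), stayed at or under 0.0464 FPKM in all libraries.

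**Figure D1:**
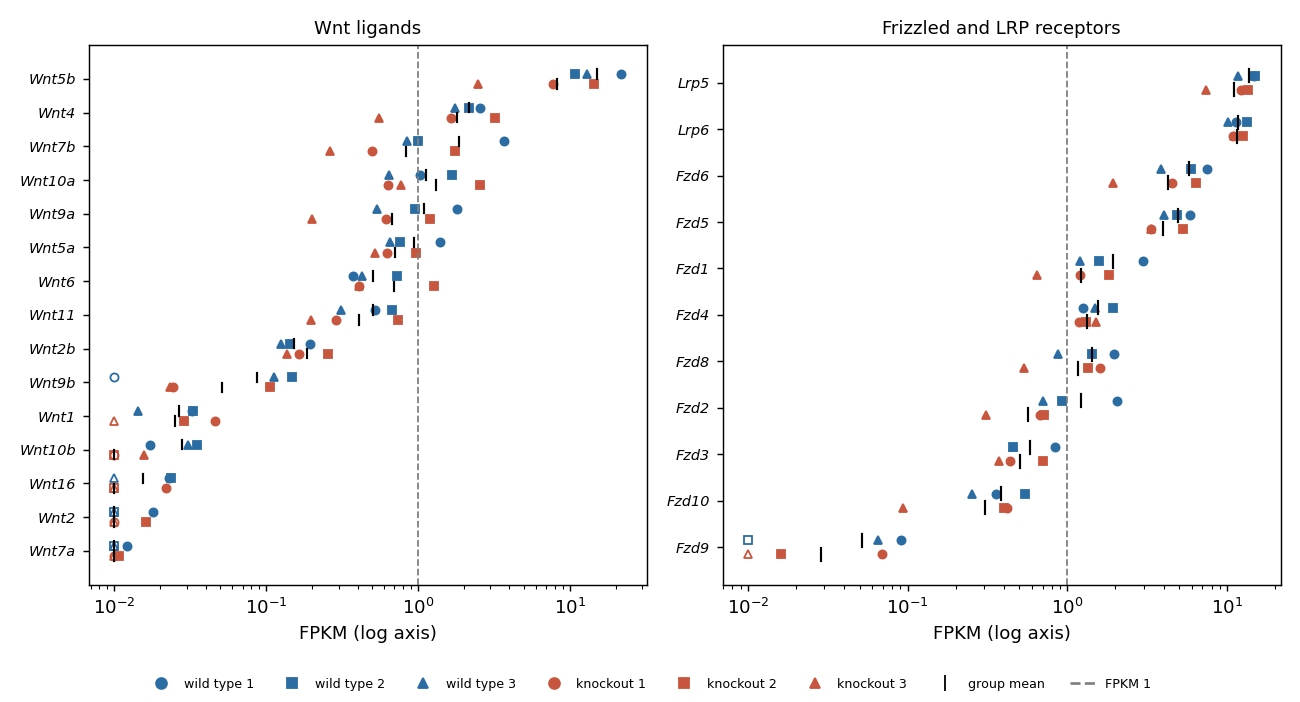
FPKM on a log axis of the 15 Wnt ligands and the 11 receptors, with 1 symbol per library, black ticks for the mean of each genotype, and open symbols at the left edge for values listed at 0 (means under 0.01 are also drawn there). The mean ticks of Wnt5b lie to the right of those of all other ligands. Its knockout replicate 3 symbol (2.49 FPKM) lies to the left of some symbols of Wnt4, Wnt7b and Wnt10a. Of the ligands, 8 have no symbol past the dashed line at FPKM 1.

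Of the 11 receptors, 7 reached FPKM 1 in at least 3 libraries: Lrp5, Lrp6, Fzd6, Fzd5, Fzd1, Fzd4 and Fzd8. Lrp5, Lrp6, Fzd4, Fzd5 and Fzd6 did so in all 6, Fzd1 in 5 and Fzd8 in 4. Fzd2 reached it in wild-type replicate 1 only. Fzd3, Fzd9 and Fzd10 stayed under it in every library, with at most 0.839, 0.0908 and 0.539 FPKM.

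The co-receptors Lrp5 and Lrp6, which pass the signal to the destruction complex, were above every Frizzled member in all 6 libraries. Lrp5 had 14.7, 14.97 and 11.6 FPKM in wild type and 12.2, 13.5 and 7.35 FPKM in the knockout. Lrp6 had 11.4, 13.3 and 10.2 FPKM in wild type and 10.9, 12.6 and 11.0 FPKM in the knockout. As deposited, Lrp6 spanned 1.31-fold and Lrp5 2.04-fold, but after rescaling to the sum outside milk genes they spanned 1.54-fold and 1.51-fold. Lrp5 exceeded Lrp6 in 5 libraries and lay under it in knockout replicate 3, where it made up 40.0% of the pair's sum against 51.7% to 56.4% elsewhere.

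Among Frizzled members, which bind the ligands, Fzd6 and Fzd5 were highest. Fzd6 had 7.43, 5.98 and 3.86 FPKM in wild type and 4.55, 6.39 and 1.92 FPKM in the knockout. Fzd5 had 5.88, 4.86 and 4.03 FPKM in wild type and 3.35, 5.29 and 3.33 FPKM in the knockout. Fzd6 exceeded Fzd5 in 4 libraries and lay under it in wild-type replicate 3 and knockout replicate 3, so their order did not hold across mice. Fzd1 (0.641 to 2.98 FPKM), Fzd4 (1.18 to 1.92 FPKM) and Fzd8 (0.535 to 1.96 FPKM) formed a lower tier in which the ranges overlapped. Fzd7, a Frizzled gene outside the 44, had 7.27 to 15.2 FPKM and exceeded each of the 9 Frizzled members in all 6 libraries. It also exceeded both Lrp5 and Lrp6 in wild-type replicate 1, and Lrp6 in knockout replicate 2.

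Of the 9 secreted regulators and export genes, 5 reached FPKM 1 in at least 3 libraries. Wls, which escorts Wnt proteins out of the cell, was the most abundant of them. It had 9.37, 11.1 and 13.8 FPKM in wild type and 13.7, 11.3 and 22.5 FPKM in the knockout. Its lowest value was in wild-type replicate 1 and its highest in knockout replicate 3, so the 2 end libraries of Wnt5b were exchanged. Porcn, the acyltransferase, had 2.03, 1.24 and 0.867 FPKM in wild type and 0.877, 1.38 and 0.699 FPKM in the knockout. As deposited, Porcn was highest in wild-type replicate 1 and lowest in knockout replicate 3, as Wnt5b and Wnt7b were.

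Rspo1, a secreted protein that strengthens Wnt signalling by sparing Frizzled and LRP receptors from removal, had 2.86, 1.31 and 1.17 FPKM in wild type and 0.720, 1.95 and 0.268 FPKM in the knockout. It spanned 10.7-fold, second to Wnt7b among the tested members, and its groups overlapped. Rspo3 never exceeded 0.0328 FPKM.

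The secreted Frizzled-related proteins, which bind Wnt ligands outside the cell, had higher knockout means for Sfrp1, Sfrp2 and Sfrp5. Sfrp2 had 1.49, 1.95 and 3.61 FPKM in wild type and 4.31, 3.53 and 2.96 FPKM in the knockout. Only wild-type replicate 3 reached into the knockout range. Sfrp1 had 0.307, 0.782 and 0.618 FPKM in wild type and 0.797, 0.910 and 0.995 FPKM in the knockout. Its groups did not overlap, but the nearest values were 0.782 and 0.797 FPKM, and the exact two-sided permutation test gave p = 0.1, the smallest p that 3 against 3 mice allow. Sfrp1 was under FPKM 1 in every library and so was not in the fit across genes. Sfrp1 was singled out after its values were seen. Among all 17739 genes 1.46% were higher in the knockout without overlap, and Sfrp1 was 1 of 44 here. Sfrp5 had 0.484, 0.848 and 0.198 FPKM in wild type and 0.849, 1.23 and 0.517 FPKM in the knockout, with overlap. Sfrp4 stayed at or under 0.0895 FPKM. Of 8 fibroblast markers, a cell type known to make Sfrp proteins, the summed FPKM was 48.5, 53.1 and 23.0 in wild type and 33.1, 60.3 and 52.8 in the knockout. The 5 tested fibroblast markers were all on the higher side, where 18.3% of all genes lay, with 0 called. Sfrp5 was highest in knockout replicate 2 and lowest in wild-type replicate 3, as the fibroblast sum was. Sfrp2 was highest in knockout replicate 1 and second highest in wild-type replicate 3, and Sfrp1 was highest in knockout replicate 3. The part of fibroblasts in the levels of the Sfrp genes was not tested. Dkk3, a divergent member of the Dickkopf family, was flat at 1.25 to 2.07 FPKM.

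**Figure D2:**
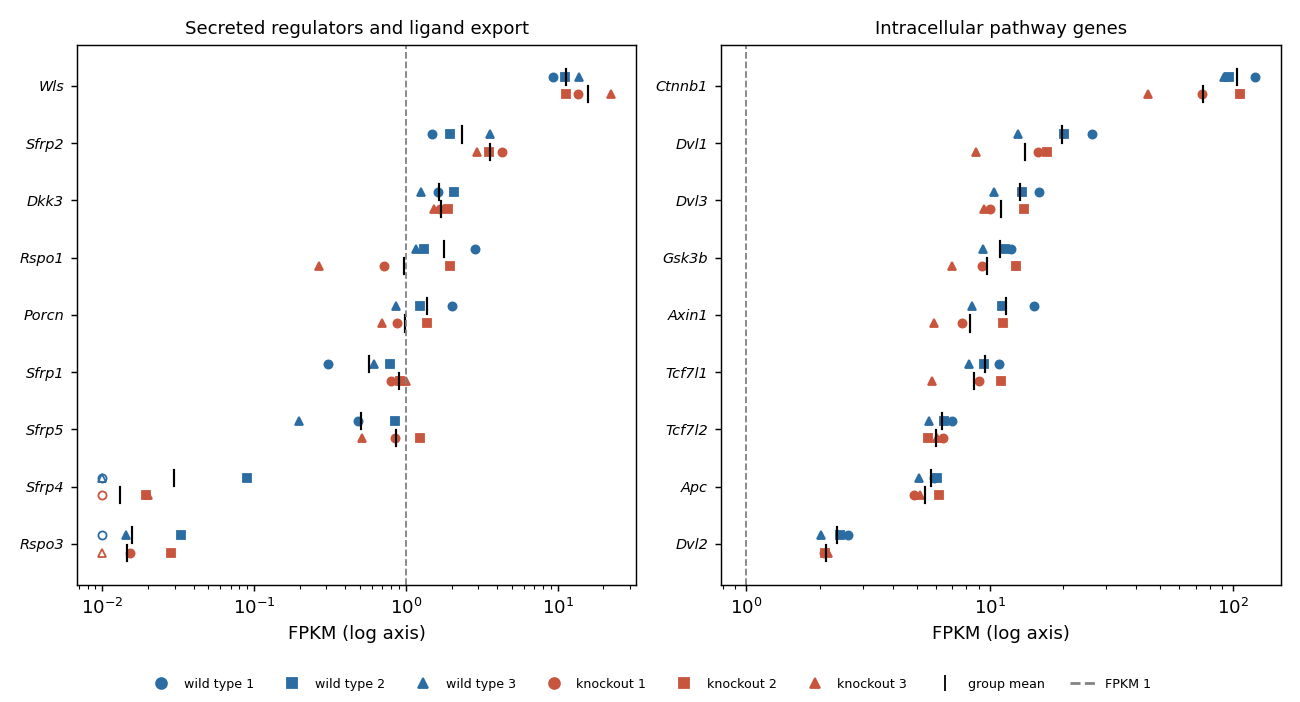
FPKM on log axes of the 9 secreted regulators and export genes and the 9 intracellular components, with 1 symbol per library, black ticks for the mean of each genotype, and open symbols at the left edge for values listed at 0. Sfrp1 is the gene whose knockout symbols all lie to the right of its wild-type symbols, and every intracellular component lies past FPKM 1.

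All 9 intracellular components reached FPKM 1 in all 6 libraries. Ctnnb1, which encodes beta-catenin, a protein of adherens junctions as well as the effector of the pathway, was the highest of the 44 genes. It had 123, 96.1 and 91.3 FPKM in wild type and 74.3, 107 and 44.8 FPKM in the knockout. Knockout replicate 2 exceeded wild-type replicates 2 and 3, so the groups overlapped. Exons of Ctnnb1 overlap Ulk4 on the other strand and a microRNA gene.

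The scaffold gene Axin1 had 15.1, 11.2 and 8.44 FPKM in wild type and 7.67, 11.3 and 5.91 FPKM in the knockout. The kinase gene Gsk3b, of the same complex, had 6.97 to 12.9 FPKM, with its highest value in knockout replicate 2. The scaffold gene Apc kept to 4.86 to 6.17 FPKM over all libraries, its highest value 1.27 times its lowest. The span of Axin1 was 2.56-fold as deposited, and it was 1.61-fold after rescaling to the sum outside milk genes, where that of Apc was 1.39-fold.

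Dishevelled proteins pass the signal from Frizzled to the destruction complex. Dvl1 had 26.2, 20.1 and 13.0 FPKM in wild type and 15.8, 17.2 and 8.74 FPKM in the knockout. Dvl3 had 9.45 to 15.97 FPKM and Dvl2 only 2.03 to 2.63 FPKM. Dvl1 exceeded Dvl3 in 5 libraries and lay under it in knockout replicate 3 (8.74 against 9.45 FPKM). Exons of Dvl1 and of Dvl2 overlap genes on the other strand, Tas1r3 and Acadvl. Of the transcription factor genes, Tcf7l1, a repressor in many settings, had 5.76 to 11.1 FPKM, and Tcf7l2 had 5.57 to 6.96 FPKM. As deposited, Tcf7l2 had the narrowest span of the tested members, 1.25-fold. Outside milk genes it spanned 1.43-fold, and Dvl3 (1.32-fold), Dvl2 (1.36-fold), Apc (1.39-fold) and Gsk3b (1.398-fold) spanned less.

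The members did not vary alike between mice. Of the 25 members that reached FPKM 1 in at least 3 libraries, 14 were highest in wild-type replicate 1 and 16 were lowest in knockout replicate 3. Both held for 12 of 25 members, or 48%, and for 50.8% of all 9767 genes that met the same minimum. The members thus shared this order about as often as other genes did. The median span from lowest to highest library was 2.56-fold in the members and 2.09-fold over all tested genes above 0 in every library. The ligands Wnt7b, Wnt5b and Wnt4 and the agonist Rspo1 spanned 5.86-fold or more. Lrp6, Apc, Dvl2 and Tcf7l2 spanned 1.31-fold or less as deposited.

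**Figure D3:**
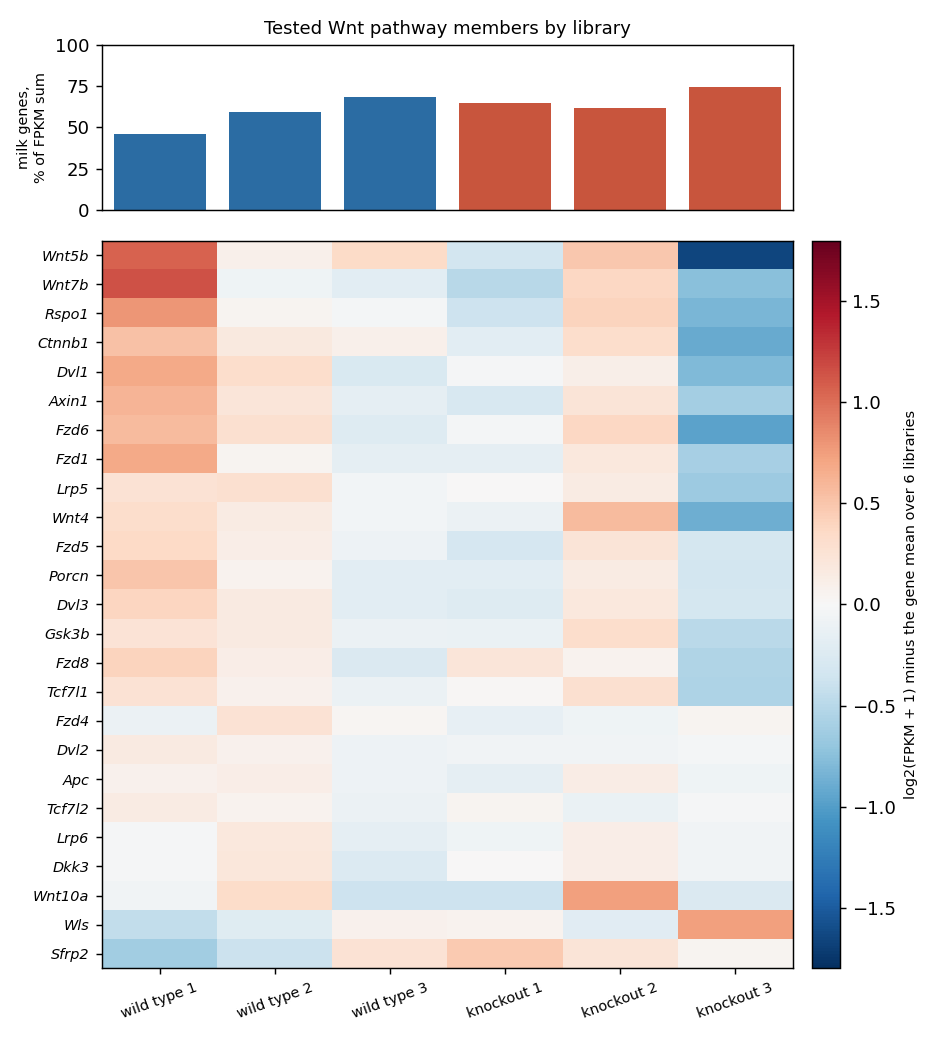
Share of the FPKM sum held by 16 milk genes in each library (bars, from 45.9% to 74.7%) above the log2(FPKM + 1) level of the 25 tested members, each centred on its mean over the 6 libraries (red higher, blue lower). Most members are red in wild-type replicate 1 and blue in knockout replicate 3, while Wls and Sfrp2 are blue in wild-type replicate 1 and Wnt10a is reddest in knockout replicate 2.

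FPKM divides by the library total, so an abundant transcript lowers the FPKM of all others. Values were therefore also rescaled to the FPKM sum outside the 16 milk genes. On that scale Wnt5b had 17.7, 10.2 and 14.1 in wild type and 7.88, 14.1 and 3.19 in the knockout, and its span narrowed from 8.79-fold to 5.53-fold. The span of Rspo1 narrowed from 10.7-fold to 6.73-fold and that of Wnt7b from 14.1-fold to 8.86-fold. That of Wls widened from 2.40-fold to 3.81-fold, with 7.58 in wild-type replicate 1 and 28.9 in knockout replicate 3. After rescaling, 6 of the 25 members were highest in wild-type replicate 1 and lowest in knockout replicate 3, against 12 before. Wnt5b, Wnt7b and Rspo1 were among the 6, though Wnt7b reached 1 in only 2 libraries on that scale. The share of all genes with this order was not counted after rescaling, so the 6 cannot be set beside it.

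**Figure D4:**
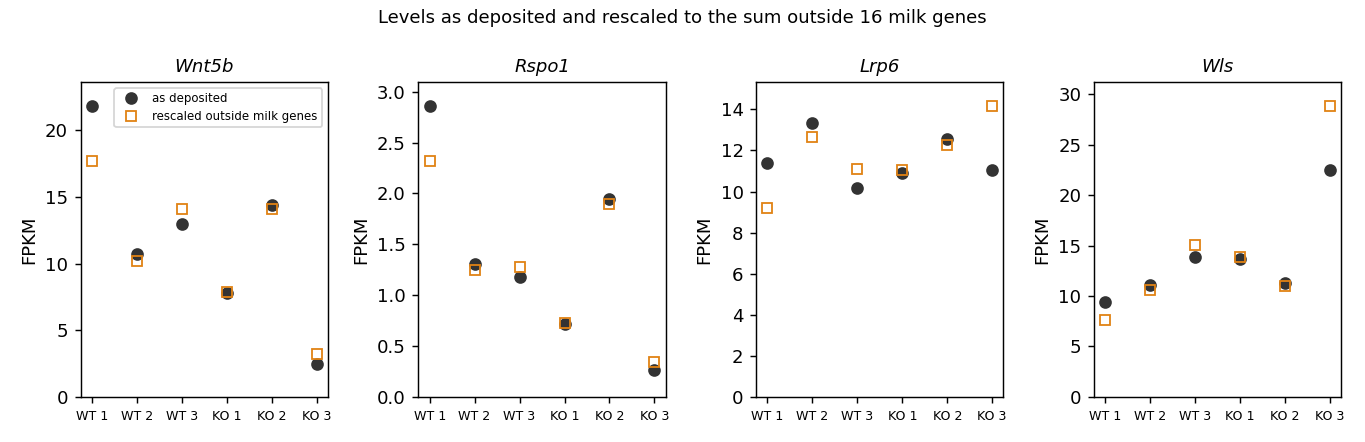
Wnt5b, Rspo1, Lrp6 and Wls in each library as deposited in FPKM (dark circles) and after rescaling to the sum outside 16 milk genes (open squares), with axes from 0. For Wnt5b and Rspo1 wild-type replicate 1 stays highest and knockout replicate 3 lowest on both scales, and for Wls these 2 ends are exchanged.

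Between genotypes, no member passed the test. With limma and Benjamini-Hochberg adjustment over 9767 genes, 0 of the 25 tested members had an adjusted p under 0.05, against 0% of all genes. At an unadjusted p under 0.05 there were 0 of 25 members, against 1.33% of all genes. No tested member had groups without overlap, against 0.778% of tested genes higher and 3.83% lower in the knockout. The other 19 members were too low to be tested, and among them Wnt10b was lower without overlap, at 0.0353 FPKM or less, as were 3.61% of all genes. Of the 25, 4 had a positive log2 fold change, or 16%, against 18.3% of all genes, and 21 a negative one, against 81.7%. The median log2 fold change was -0.24 over the members and -0.21 over all genes, and 12 of 25 members lay above the latter. By role, 3 of 4 ligands, 7 of 7 receptors, 2 of 5 secreted and export genes and 9 of 9 intracellular components were on the lower side. After trimmed-mean rescaling, which moved the median of all genes to 0.01, 12 of 24 tested members were on the higher side. That scaling centres each library, so a near-even split of all genes (51.8% higher) is set by the scaling itself. Without wild-type replicate 1 and knockout replicate 3, and not rescaled, it was 12 of 22 members and 57.9% of all genes. What sets the directions was not tested.

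Wnt5b was the ligand with the smallest p. The wild-type mean was 15.2 ± 5.87 FPKM and the knockout mean was 8.23 ± 5.98 FPKM (SD, n = 3 each). On the log2(FPKM + 1) scale the fold change was -0.997 (SE 0.47, 95% confidence interval -2.03 to 0.03, limma adjusted p = 0.768). Without wild-type replicate 1 it was -0.72, without knockout replicate 3 -0.42, and without both -0.14. Wnt7b had a log2 fold change of -0.58 (95% confidence interval -1.40 to 0.23) and Wnt4 one of -0.27 (-0.97 to 0.42), and the latter turned to 0.096 without knockout replicate 3. Wnt7b had -0.35 without knockout replicate 3, and without wild-type replicate 1 it did not meet the minimum for testing. Of the receptors, Fzd1 had -0.38 (-0.97 to 0.21), Fzd6 -0.42 (-1.17 to 0.34) and Lrp5 -0.33 (-0.93 to 0.27). Without both wild-type replicate 1 and knockout replicate 3, Fzd1 turned to 0.067 and Fzd6 to 0.14, and Lrp5 had -0.037. All these intervals include 0.

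Sfrp2 had the smallest p of the secreted genes. The wild-type mean was 2.35 ± 1.11 FPKM and the knockout mean was 3.60 ± 0.674 FPKM (SD, n = 3 each). The log2 fold change was 0.50 (95% confidence interval -0.07 to 1.07, limma adjusted p = 0.768). It stayed positive, between 0.31 and 0.75, with any 1 library left out, and was 0.41 without wild-type replicate 1 and knockout replicate 3. An antisense gene overlaps exons of Sfrp2. Wls had a log2 fold change of 0.40 (95% confidence interval -0.25 to 1.04), which was 0.13 without knockout replicate 3 and 0.0058 without both end libraries. Rspo1 had -0.53 (-1.23 to 0.16), and 0.0073 without both. Inside the cell, Ctnnb1 had -0.53 (-1.28 to 0.23), Dvl1 -0.48 (-1.20 to 0.25) and Axin1 -0.44 (-1.09 to 0.20), each with a limma adjusted p of 0.768. Without both end libraries they had -0.072, 0.023 and -0.054.

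**Figure D5:**
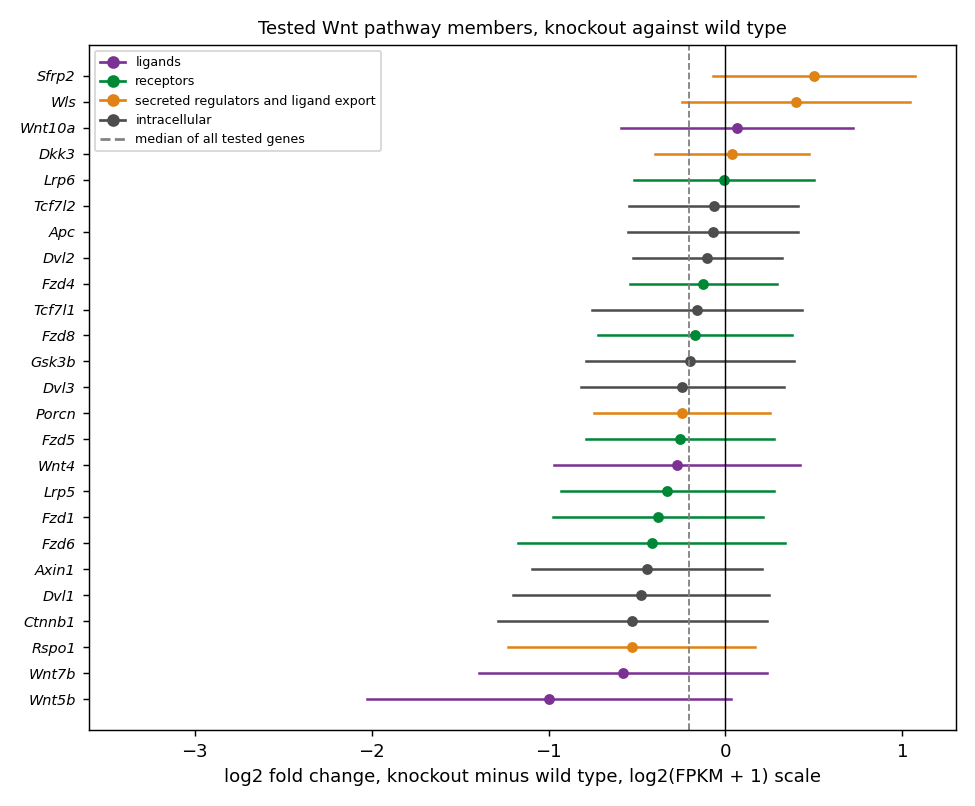
Log2 fold change, knockout minus wild type, of the 25 tested members on the log2(FPKM + 1) scale, with bars for the 95% confidence interval, colours for the role, and a dashed line at the median of all tested genes (-0.21). Every bar crosses 0, with Wnt5b at the lower end (-0.997) and Sfrp2 at the upper end (0.50).

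A list of 82 other pathway genes held 75 in the table, of which 43 were tested. With limma, 0 passed in either direction, against 0% of all genes, and 0 had an unadjusted p under 0.05, against 1.33%. Of the 43, 3 were on the higher side and 40 on the lower, where 81.7% of all genes lay. Their median log2 fold change was -0.24, against -0.21 over all genes. After trimmed-mean rescaling 51.8% of all genes were on the higher side, and the 43 as a set were not counted on that scale. Among the 43 were the co-receptor gene Ptk7 (-0.70, 95% confidence interval -1.49 to 0.10), the inhibitor gene Tpbg (-0.74, -1.66 to 0.17), the tankyrase gene Tnks2 (-0.54, -1.31 to 0.24) and Amer1 (-0.27, -0.70 to 0.16). The nuclear cofactors Pygo2 and Bcl9 had -0.62 (-1.31 to 0.06) and -0.53 (-1.11 to 0.06). The planar polarity genes Vangl1 and Scrib had -0.78 (-1.65 to 0.10) and -0.50 (-1.12 to 0.12). The transport genes Tmed2 and Tmed5, which move Wnt proteins among other cargo, had -0.20 (-0.84 to 0.43) and -0.18 (-0.72 to 0.37). After trimmed-mean rescaling Tmed2 (0.065) and Tmed5 (0.081) turned positive. The others named here stayed negative on that scale, from -0.59 for Vangl1 to -0.12 for Amer1. Without both wild-type replicate 1 and knockout replicate 3, these 10 genes had log2 fold changes between -0.10 and 0.045, with Ptk7 at -0.053, Vangl1 at -0.026 and Tnks2 at -0.0084. Axin2 and Lgr5, among the feedback targets of the canonical branch, were low in all libraries, at 0.0517 to 0.108 FPKM and 0.125 to 0.252 FPKM. Lef1 did not exceed 0.0208 FPKM. Other genes of the list were higher, with 2.20 to 3.57 FPKM for Rnf43, 0.551 to 2.37 FPKM for Tcf7 and 0.499 to 1.85 FPKM for Znrf3. Neither absence of a transcript nor the activity of the branch is read from these levels.

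Of the other lists of markers, the summed FPKM of 8 endothelial markers was 150, 131 and 78.6 in wild type and 97.2, 136 and 69.9 in the knockout. It was highest in wild-type replicate 1 and lowest in knockout replicate 3, as were Wnt5b and 50.8% of all tested genes. Of the 8 markers, 6 were on the lower side, where 81.7% of all genes lay, and 0 were called. That of 8 hormone-sensing luminal markers was 96.4, 48.7 and 36.3 in wild type and 52.4, 34.7 and 27.8 in the knockout, with 3 of 5 tested markers on the higher side, 2 on the lower and 0 called. Ly6a made up most of that sum, at 86.9 FPKM in wild-type replicate 1 and 18.8 FPKM in knockout replicate 3. Pgr, the progesterone receptor gene, did not exceed 0.212 FPKM. Of 11 luminal alveolar markers, 6 were on the lower side, 5 on the higher and 0 called. Krt8 and Krt18 had the same end libraries as Wnt5b, while Csn2 and Wap had them exchanged. The part of these cell types in the levels of the Wnt genes was not tested.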

How the data were processed

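The authors deposited 1 table of FPKM for 17739 genes in 6 libraries. Per the submitters' processing notes, FastQC, TopHat, SAMtools and Cufflinks were used, with the builds mm10 and GRCm38. Not given in the sources used here were versions, strand setting and annotation. Absolute depth is unknown; from 456 genes at low FPKM, libraries had 0.975 to 1.13 times the depth of wild-type replicate 1. SDs come from the mice of a group. SEs and confidence intervals come from limma, which pools both groups. It also draws the variance of each gene towards a trend fitted over all tested genes.

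Genes that reached FPKM 1 in 3 or more libraries were tested on log2(FPKM + 1) with limma 3.58.1 in R 4.3.3 (intensity trend, two-sided, Benjamini-Hochberg over 9767 genes, threshold 0.05). A pseudocount of 1 understates changes of low genes. No mice were paired. The fit was tested on simulated data. The members and lists were chosen with earlier results of these data known. Fold changes are printed for Nmi, for the 3 tested members of each role with the smallest unadjusted p, and for the 2 such genes of each other pathway list; all other members are given as levels. Coordinates are from GENCODE mouse release 21, promoters from RefSeq (GRCm38.p6). BLAST 2.17.0 found 0 members with a near-identical copy (95% identity over 50% of the longest transcript), and 11 had exons that overlap another gene. Alternatives were the pseudocount, the filter, 3 scalings, library weights and left-out libraries.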

Additional observations from a re-analysis of the deposited data

How the results depend on the processing

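No member was called under any of the 14 alternatives of filter, pseudocount, scaling, weights and left-out libraries (limma adjusted p of the 12 named members at least 0.360). Over all genes, 2 were called with library quality weights, Nmi among them (log2 fold change -1.59, adjusted p = 0.00067), and 1 without both end libraries (wild-type replicate 1 and knockout replicate 3). At an unadjusted limma p under 0.05 there were 0 of 25 members as reported, against 130 of 9767 genes. With the weights there were 3 of 25 members, against 1142 of 9767 genes. Without knockout replicate 2 there were 5 of 22 members, against 1168 of 9549 genes. Without wild-type replicate 3 there were 2 of 25 members, against 634 of 9677 genes. Each of the other alternatives gave 0 or 1 member. The number of members on the higher side, 4 of 25, was 8 of 44 without a filter, 12 of 24 after trimmed-mean rescaling, 10 of 25 after quantile normalization, 8 of 23 after scaling outside the milk genes and 12 of 22 without both end libraries. With 1 library left out it ran from 2 to 8. Members reaching FPKM 1 in at least 3 libraries numbered 25, and 23 after scaling outside the milk genes. FPKM 1 was reached by 30 members in any library and by 18 in all 6. In at least 3 libraries, 31 members reached FPKM 0.5 and 17 reached FPKM 2. The sign turned for Tmed5 after trimmed-mean rescaling (0.081), quantile normalization (0.052), milk scaling (0.013) and without both end libraries (0.033), and for Tmed2 after trimmed-mean rescaling (0.065) and without both end libraries (0.045). Without both end libraries it also turned for Wnt4 (0.19), Fzd1 (0.067), Fzd6 (0.14), Rspo1 (0.0073), Dvl1 (0.023) and Tpbg (0.030). With 1 library left out, Wnt4 ran from -0.63 to 0.096. Wnt7b had no test where it fell under the filter. The cause of these changes was not tested, beyond the fewer libraries or genes of an alternative. The 95% intervals of most tested members reach 0.5 or more on each side of the estimate.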
